A study of Mus musculus with 4 samples.

Results

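The genes described here encode the kinase mTOR, its complexes and the lysosomal machinery that couples mTOR complex 1 (mTORC1) to nutrients. Their transcripts were read in CD4+CD8+ double-positive (DP) thymocytes of mice with a deletion of Uqcrfs1, which encodes the Rieske protein of respiratory complex III, and of control mice. The 10 members, Mtor, Rptor, Rictor, Rheb, Tsc1, Tsc2, Flcn, Fnip1, Lamtor1 and Rragc, were taken by symbol from the authors' deposited comparison, and all 10 are among its 11536 genes and among the 43430 genes of the count table. RNA sequencing was done on 4 libraries of sorted thymocytes from C57BL/6 mice, with each library treated as 1 mouse of its group. The 2 knockout (KO) mice are labelled Uqcrfs1fl/fl; CD4-Cre+, so Cre is driven by the Cd4 promoter, which becomes active in thymocytes at about the DP stage. The 2 controls are labelled WT for genotype but described as heterozygous littermates, so WT is only a group name here; the sources used here do not give their Cre status or the age of the mice. If the controls had no Cre, its presence and the loss of Uqcrfs1 cannot be told apart.

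mTORC1, built around the scaffold Raptor, promotes protein synthesis and growth when amino acids and growth factors are present. Amino acids bring it to the lysosome through Rag GTPases held there by Ragulator, and growth factors release the GTPase Rheb from the TSC complex, which holds it inactive. mTORC2, built around Rictor, phosphorylates AKT and related kinases. FLCN and its FNIP partners act on the Rag GTPases, and through them on the transcription factors TFEB and TFE3. In mice, loss of Rptor, Rictor, Tsc1 or Fnip1 is known to disturb the development of invariant natural killer T (iNKT) cells. These cells arise from DP thymocytes. The comparison of KO with WT asks whether transcripts of this pathway differ in the precursors when Uqcrfs1 is deleted.

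Gene counts totalled 34080516 and 31728511 in the KO libraries, against 32846323 and 30408863 in the WT libraries. Uqcrfs1, the targeted gene, stood at 15.6 and 18.6 CPM (gene counts scaled for library size with TMM factors) in KO, against 61.4 and 57.2 CPM in WT. It fell by 1.80 on the log2 scale (SE 0.09, adjusted p = 1.78e-04, edgeR's quasi-likelihood test), to 0.288-fold of WT. RNA counts do not show how much Rieske protein or complex III was left in the KO cells. Summed DP markers, of which 5 of 7 were higher in KO, came to 15503 and 15588.5 CPM in KO, against 14634 and 15874 CPM in WT. Rag1 made up the largest part of that sum. Cd8a and Cd8b1 were lower in KO without overlap of the groups (log2 changes -0.10, SE 0.05, and -0.092, SE 0.04), and neither was called. Markers of earlier CD4-CD8- thymocytes summed to 129 and 166 CPM in KO, against 98.1 and 100.4 CPM in WT, and 6 of 6 were higher in KO. Myeloid markers (5 of 6 tested higher in KO) summed to 20.4 and 31.0 CPM in KO, against 21.9 and 20.0 CPM in WT. Mature T cell markers (4 of 5 higher in KO) summed to 246 and 257 CPM in KO, against 234 and 231 CPM in WT. Stromal markers (1 of 3 tested higher in KO) summed to 145 and 144 CPM in KO, against 152 and 157 CPM in WT. Of that list, Krt8 and Pdgfra had 0 counts in every library, as had Hba-a1 of the erythroid list, whose sums were 0.221 CPM or less. NKT effector markers (3 of 4 tested higher in KO) summed to 3.26 and 8.67 CPM in KO, against 4.60 and 3.92 CPM in WT. B cell markers (4 of 4 tested higher) summed to 29.5 and 28.0 CPM in KO, against 28.9 and 25.5 CPM in WT. Reads outside annotated exons made up 20.6% and 19.9% of uniquely aligned reads in KO, against 17.2% and 18.6% in WT. The part of these differences in the results below was not tested. In bulk RNA, fewer cells of a type and less RNA per cell cannot be told apart.

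All 10 members had enough counts for the test, and none differed between KO and WT past the threshold of an adjusted p under 0.05. In the same test 0.0226% of the 13281 genes passed (3 genes, Uqcrfs1 among them), 0.00753% higher and 0.0151% lower in KO. At an unadjusted p under 0.05 there was 1 member, Lamtor1, which was lower in KO, beside 8.40% of all genes (4.40% higher and 4.01% lower in KO). DESeq2 called 0 members and 22 genes (0.109%), and edgeR's likelihood ratio test 0 members and 101 genes (0.760%). The median log2 change of the members was 0.016, against -0.0001 for all genes tested, with 6 members higher and 4 lower in KO, beside 49.9% of all genes higher. All 10 had an absolute log2 change within 0.25, as had 82.4% of all genes. For 4 members the groups did not overlap: for Rictor and Fnip1 each KO value was above each WT value, and for Rptor and Lamtor1 below. Of all genes, 40.5% did not overlap, 20.4% with KO above and 20.1% with KO below, so 4 of 10 is close to that share. The 95% intervals of the members' fold changes lay between 0.777-fold (the lower bound of Lamtor1) and 1.23-fold (the upper bound of Fnip1). With 2 libraries a group, these intervals take most of their estimate of spread from the other genes.

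**Figure D1:**
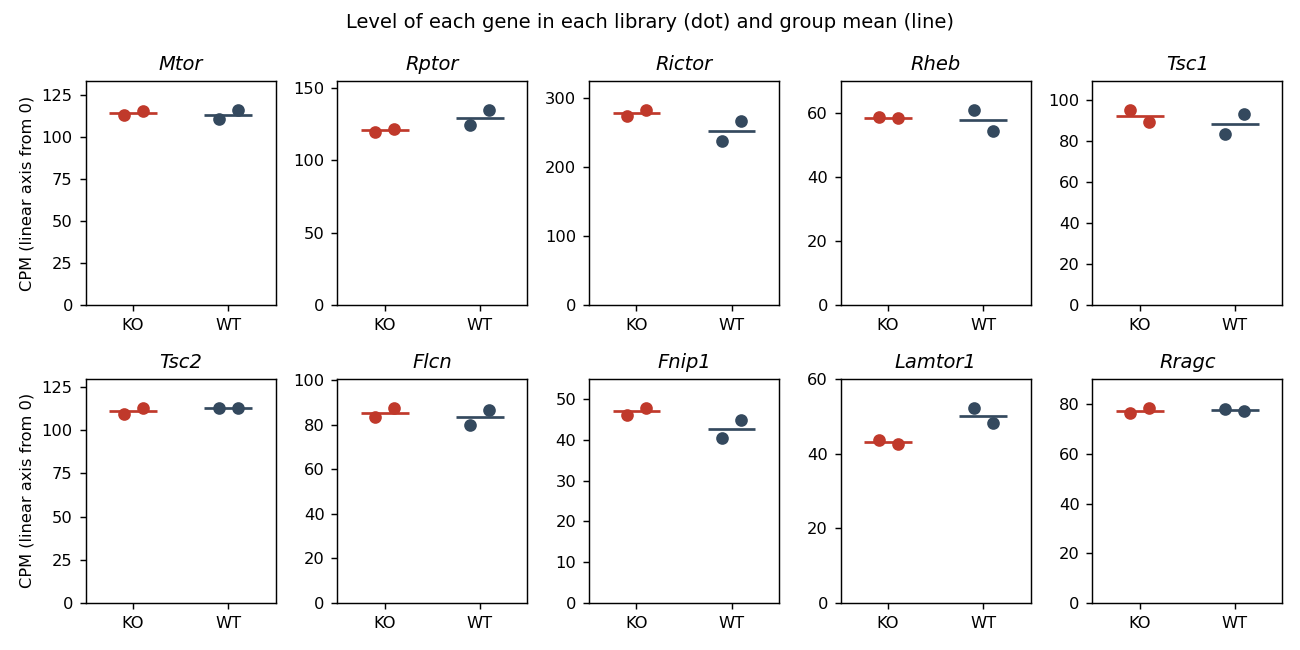
Level of each of the 10 genes in CPM (vertical axis, linear and starting at 0) in the 2 KO libraries (left, red dots) and the 2 WT libraries (right, dark dots), with the group mean as a line. The KO dots of Rictor and Fnip1 lie above their WT dots, those of Rptor and Lamtor1 below, and the dots of the other 6 genes overlap.

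Levels of different genes were compared as CPM per kilobase of the principal coding transcript. Lamtor1, the anchor of Ragulator on the lysosomal membrane, had the highest level of the 10, at 38.6 ± 0.671 per kilobase in KO and 44.8 ± 2.63 in WT (SD, n = 2 each). Over the 4 libraries it was followed by Rheb at a mean of 32.6, Rragc at 29.9, Rictor at 28.5, Flcn at 24.6, Rptor at 19.0, Tsc2 at 18.6, Mtor at 13.3, Tsc1 at 11.8 and Fnip1 at 7.16. Neighbours in this order did not overlap between libraries, with the exceptions of Rragc with Rictor and of Rptor with Tsc2. Among 11340 tested genes with a coding transcript, Lamtor1 stood at the 82.0th percentile of level per kilobase and Fnip1 at the 37.1st. The order depends on the length used: scaled by all annotated exons, Rictor came first at a mean of 28.5 and Tsc1 last at 1.97, where the annotated exons of Tsc1 add up to 45788 bases and its principal transcript to 7674.

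The promoters of the members were searched for the CACGTG E-box, the core that TFEB, TFE3 and also other factors such as MYC and USF bind. A promoter is here the 250 bases before and 50 bases after the start of the gene in RefSeq (build GRCm38.p6), and all 10 members matched. The motif reads the same on both strands and was present in 4 of 10 members, Fnip1, Lamtor1, Rheb and Rragc, and in 9.95% of 11567 promoters of tested genes (7.15% of 32851 promoters in all). The 30 bases around each match are shown on the strand of the gene, 5′ to 3′, with the motif in capitals. These 4 promoters were picked for holding the motif, so that they share it is not a result.
Fnip1: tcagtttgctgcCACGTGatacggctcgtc
Lamtor1: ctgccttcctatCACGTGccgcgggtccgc
Rheb: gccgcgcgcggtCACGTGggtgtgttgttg
Rragc: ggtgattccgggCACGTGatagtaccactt
They lie at chr11:54438092-54438121 on the plus strand, chr7:101905757-101905786 on the plus strand, chr5:24842440-24842469 on the minus strand and chr4:123917309-123917338 on the plus strand, in that order. Counted from the RefSeq start, the first base of the motif is at -75, -68, -96 and -112. The gene coordinates given below are those deposited with the counts and start elsewhere. From that start, the motif lies before the gene in Fnip1, Lamtor1 and Rragc, but 167 bases inside the gene in Rheb. For these 4 genes the deposited coordinates equal those of GENCODE M21, while those of Rictor and Tsc2 differ from that release. The longer palindrome TCACGTGA was in 0 of 10 members and in 1.92% of promoters of tested genes. CCGGAAG, a core bound by ETS factors, was present on either strand in 3 of 10 (Lamtor1, Mtor and Tsc2) and in 18.1% of promoters of tested genes. CCAAT was in 5 of 10 and 37.8%, TGACGTCA in 1 of 10 (Flcn) and 3.14%, and GCGCATGC in 0 of 10 and 5.46%. TCACGTGA holds CACGTG, and no other searched motif contains another. The members with the E-box had no common direction: their log2 changes were 0.14 (Fnip1), -0.22 (Lamtor1), 0.021 (Rheb) and -0.0042 (Rragc).

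Mtor, the catalytic subunit of both complexes, stood at 113 and 115 CPM in KO, against 111 and 116 CPM in WT. The groups overlapped, and the log2 change was 0.012 (SE 0.05, adjusted p = 0.960 in edgeR's quasi-likelihood test), with a 95% interval of 0.930- to 1.09-fold. The gene lies on chromosome 4 from 148448611 to 148557683 in mm10.
Rptor, which encodes the mTORC1 scaffold Raptor, stood at 120 and 122 CPM in KO, against 124 and 135 CPM in WT. Both KO values were below both WT values, with WT replicate 2 furthest away. The log2 change was -0.098 (SE 0.06, adjusted p = 0.657), with an interval of 0.856- to 1.02-fold. Leaving out WT replicate 2 gave -0.044, and leaving out WT replicate 1 gave -0.16. It lies on chromosome 11 from 119602905 to 119899576, and 84 bases of its exons overlap the antisense gene Rptoros, which had 204 to 245 counts.
Rictor, which encodes the defining subunit of mTORC2, was the most abundant member in CPM, at 274 and 283 in KO, against 238 and 268 in WT. Both KO values were above both WT values, but the WT libraries differed more from each other than WT replicate 2 did from KO. The log2 change was 0.14 (SE 0.06, adjusted p = 0.595), with an interval of 0.9996- to 1.21-fold. Rictor was called only without WT replicate 2, at 0.22 (adjusted p = 0.0295); in that fit 2.65% of genes passed, and WT replicate 1 stood alone for its group and was assumed to vary like the KO libraries. Its adjusted p ran from 0.0295 to 0.99998 over the alternatives with a test. Without WT replicate 1 the log2 change was 0.052. The gene lies on chromosome 15 from 6708381 to 6800398.

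**Figure D2:**
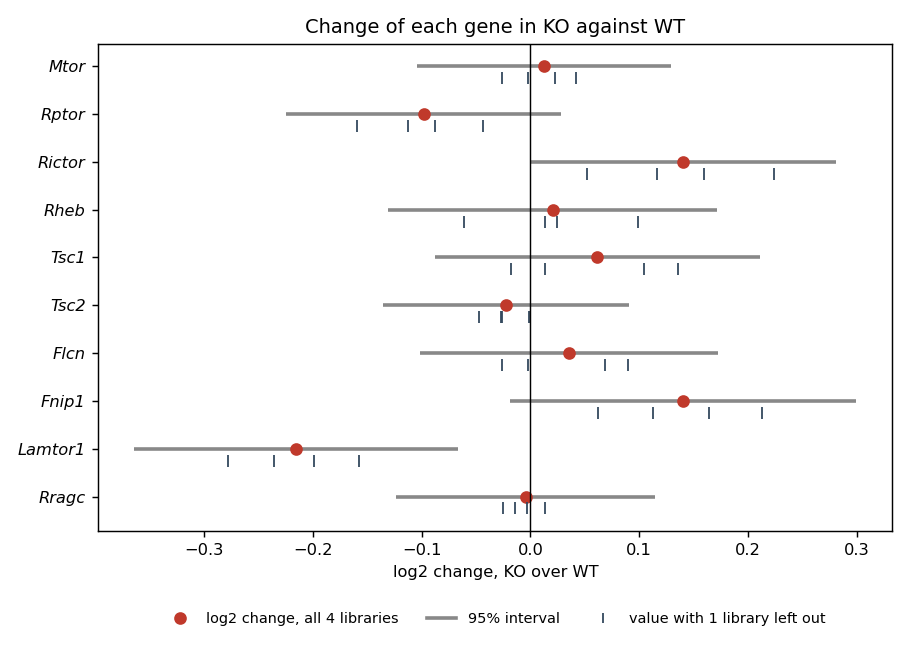
Log2 change of each of the 10 genes (horizontal axis, KO over WT) with its 95% interval from edgeR's quasi-likelihood fit (grey bar). Dark ticks show the value with each 1 of the 4 libraries left out; those of Lamtor1 run from -0.28 to -0.16 and stay below 0, while those of Mtor run from -0.026 to 0.042 across it.

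Within each library, Rictor per kilobase over Rptor per kilobase came to 1.62 and 1.64 in KO, against 1.35 and 1.41 in WT. The ratio of the mTORC2 to the mTORC1 scaffold transcript was thus higher in 2 of 2 KO libraries than in either WT library. The mean log2 ratio was 0.71 ± 0.013 in KO and 0.47 ± 0.040 in WT (SD, n = 2 each), a difference of 0.24. An exact two-sided permutation test over the 4 libraries gave p = 0.33, the smallest that 2 against 2 libraries allow, so this design cannot pass 0.05. Leaving out single libraries gave differences of 0.21 to 0.27, and the difference does not depend on scaling between libraries.

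The other subunits of the complexes also did not pass. Of 9 listed partners, 5 were higher and 4 lower in KO, with a median log2 change of 0.033, and 0 of 9 were called. Akt1s1, which encodes PRAS40, an inhibitory partner of Raptor, stood at 29.0 ± 0.077 CPM in KO and 32.6 ± 0.216 CPM in WT (SD, n = 2 each; log2 change -0.17, SE 0.07, adjusted p = 0.569 in edgeR's test). Mapkap1, which encodes the mTORC2 subunit SIN1, had a log2 change of -0.096 (SE 0.06), and Tti1, part of a chaperone complex that helps assemble mTOR, one of 0.11 (SE 0.06). The mTORC2 partners Prr5 and Prr5l were under 1 CPM in every library, and Deptor, an inhibitor of both complexes, was at 7.19 and 8.10 CPM in KO, against 7.40 and 6.09 CPM in WT.

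Tsc1, which encodes hamartin, stood at 95.2 and 89.4 CPM in KO, against 83.7 and 93.2 CPM in WT. Values overlapped and WT replicate 1 was lowest. The log2 change was 0.062 (SE 0.07, adjusted p = 0.812 in edgeR's test), with an interval of 0.941- to 1.16-fold. Tsc1 lies on chromosome 2 from 28641228 to 28691167.
Tsc2, which encodes tuberin, the part of the complex that inactivates Rheb, stood at 109 and 113 CPM in KO, against 113 and 113 CPM in WT. Its groups overlapped and the log2 change was -0.022 (SE 0.05, adjusted p = 0.919), with an interval of 0.910- to 1.07-fold. Tsc2 lies on chromosome 17 from 24595937 to 24632629, and 693 bases of its exons overlap Pkd1 on the other strand (4773 to 5142 counts); whether counting used strand is not stated, so reads of the 2 genes in that stretch may not have been told apart.
Rheb, which encodes the GTPase that activates mTORC1, stood at 58.8 and 58.4 CPM in KO, against 60.9 and 54.5 CPM in WT. Both KO values lay between the WT values. The log2 change was 0.021 (SE 0.07, adjusted p = 0.947), with an interval of 0.913- to 1.13-fold. Rheb lies on chromosome 5 from 24802823 to 24842624.
Tsc1 over Tsc2 per kilobase came to 0.683 and 0.621 in KO, against 0.582 and 0.647 in WT. The ratios overlapped, and the log2 difference of 0.085 had p = 0.667 in the exact two-sided permutation test. Tbc1d7, the third subunit of the TSC complex, had a log2 change of 0.12 (SE 0.18), and Rhebl1, a relative of Rheb, one of 0.14 (SE 0.13). Both were under 8 CPM in every library, and 0 of 2 passed.

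Lamtor1, which encodes the Ragulator subunit that tethers the complex to the lysosome, was the member with the largest absolute log2 change. It stood at 43.7 and 42.7 CPM in KO, against 52.2 and 48.1 CPM in WT. Both KO libraries were below both WT libraries, and the KO libraries lay close together. The log2 change was -0.22 (SE 0.07), or 0.861-fold with an interval of 0.777- to 0.955-fold. It did not pass (adjusted p = 0.509 in edgeR's quasi-likelihood test), and 248 genes had a smaller p. Over the alternatives with a test its adjusted p ran from 0.050013 (without WT replicate 2) to 0.99998 (DESeq2). In the authors' deposited table, which uses a likelihood ratio test, Lamtor1 has a log2 change of -0.22 and an adjusted p of 0.274, and 0 of 10 members are among the marked genes (0.399% of that table). The gene lies on chromosome 7 from 101905904 to 101926675, and 600 bases of its annotated exons overlap Lrrc51 on the other strand, which had 16 to 36 counts.
Rragc, which encodes the Rag GTPase C, stood at 76.4 and 78.5 CPM in KO, against 78.0 and 77.4 CPM in WT. Of the members it had the smallest absolute log2 change, -0.0042 (SE 0.05, adjusted p = 0.989), with an interval of 0.918- to 1.08-fold. It lies on chromosome 4 from 123917446 to 123936997.
Flcn, which encodes folliculin, a GTPase-activating protein for Rag C and D, stood at 83.4 and 87.6 CPM in KO, against 80.1 and 86.8 CPM in WT. The groups overlapped, and the log2 change was 0.035 (SE 0.06, adjusted p = 0.891), with an interval of 0.932- to 1.13-fold. Flcn lies on chromosome 11 from 59791408 to 59810016.
Fnip1, which encodes the folliculin-interacting partner, stood at 46.1 and 47.8 CPM in KO, against 40.4 and 44.8 CPM in WT. Both KO values were above both WT values, by little in the case of WT replicate 2. The log2 change was 0.14 (SE 0.07, adjusted p = 0.629), with an interval of 0.987- to 1.23-fold, and it was 0.062 without WT replicate 1. Fnip1 lies on chromosome 11 from 54438199 to 54518235.
Fnip1 over Flcn per kilobase came to 0.304 and 0.300 in KO, against 0.277 and 0.284 in WT. Both KO ratios were above both WT ratios, with a log2 difference of 0.11 (exact two-sided permutation p = 0.33, the smallest possible). The 2 transcripts differ in base composition, with 38.9% GC in Fnip1 and 54.6% in Flcn, and log2 changes moved with GC content (below).

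**Figure D3:**
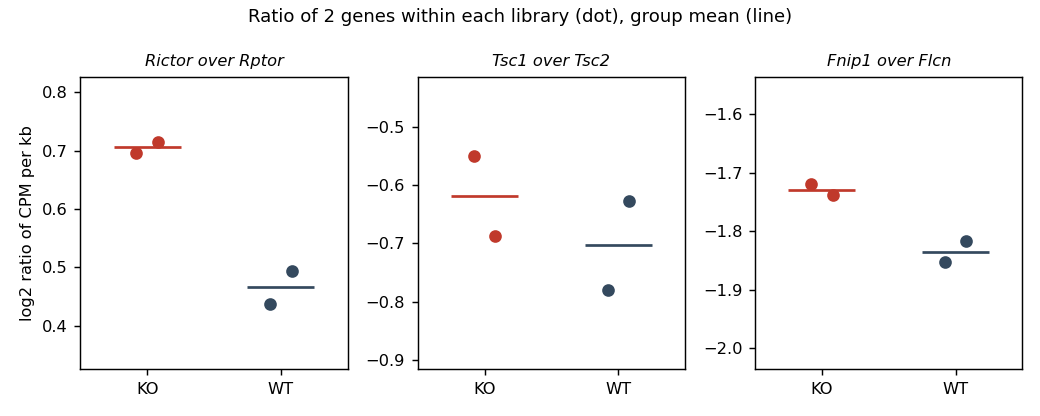
Log2 ratio of 2 genes per kilobase within each library (vertical axis; each panel spans the same range) for Rictor over Rptor, Tsc1 over Tsc2 and Fnip1 over Flcn, with KO libraries left (red), WT libraries right (dark) and group means as lines. KO and WT are separate in the first and last panel and overlap in the middle one.

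Other genes of the lysosomal platform went in both directions. Of 9 listed partners, 4 were higher and 5 lower in KO, with a median log2 change of -0.033, and 0 of 9 were called. The sign of that median depended on the WT libraries: leaving out WT replicate 1 gave 0.030, and leaving out WT replicate 2 gave -0.15. Lamtor4, another Ragulator subunit, stood at 19.6 and 18.5 CPM in KO, against 23.3 and 23.1 CPM in WT, with no overlap (log2 change -0.28, SE 0.08, adjusted p = 0.507 in edgeR's test). Lamtor2, Lamtor5 and Lamtor3, the remaining Ragulator subunits, had log2 changes of -0.20 (SE 0.10), -0.033 (SE 0.07) and 0.057 (SE 0.06). The groups overlapped for Lamtor2, whose log2 change ran from -0.34 to -0.077 when each library in turn was dropped. Rraga, which encodes the Rag A partner of Rag C, stood at 44.3 and 43.4 CPM in KO, against 49.7 and 47.3 CPM in WT (log2 change -0.15, SE 0.06, adjusted p = 0.579). Rragd, which encodes Rag D and is a known target of TFEB, lay on the other side, at 48.2 and 52.4 CPM in KO, against 42.6 and 46.6 CPM in WT (log2 change 0.17, SE 0.07, adjusted p = 0.571). Fnip2 was at 1.47 and 1.39 CPM in KO, against 1.58 and 1.09 CPM in WT, so Fnip1 was the FNIP gene with the higher count.

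Upstream of the Rag GTPases, the GATOR and KICSTOR genes and the amino acid sensors had 0 called genes of 15 tested. Of 10 GATOR and KICSTOR genes 5 were higher and 5 lower, with a median log2 change of -0.0075. Depdc5, a subunit of GATOR1, which inactivates Rag A and B, stood at 64.5 and 63.2 CPM in KO, against 70.5 and 72.1 CPM in WT (log2 change -0.16, SE 0.05, adjusted p = 0.528 in edgeR's test). Sec13, part of GATOR2 and of the secretory coat, had a log2 change of -0.12 (SE 0.06), and Itfg2, a KICSTOR subunit, one of -0.12 (SE 0.08). Of 5 tested sensor genes 4 were lower in KO, with a median of -0.14. Sesn1, which encodes a sestrin and is also a p53 target, was the pathway gene with the smallest p. It stood at 161 and 150 CPM in KO, against 176 and 193 CPM in WT, a log2 change of -0.25 (SE 0.06, adjusted p = 0.443). Sesn2, which encodes a leucine sensor, had a log2 change of -0.14 (SE 0.13) and Sesn3 one of 0.065 (SE 0.08), while Castor1, an arginine sensor gene, had 0.504 CPM or less in every library.

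The growth factor input had 6 of 9 genes higher in KO, a median log2 change of 0.046 and 0 calls. Pik3cg, a catalytic subunit of PI3 kinase, stood at 155 and 158 CPM in KO, against 146 and 144 CPM in WT (log2 change 0.11, SE 0.05, adjusted p = 0.598 in edgeR's test). Pdpk1, which encodes the kinase that activates AKT and S6 kinase, had a log2 change of 0.11 (SE 0.05). Ddit4, a stress-induced inhibitor of mTORC1, stood at 109 and 139 CPM in KO, against 111 and 101 CPM in WT. KO replicate 2 was the high library and KO replicate 1 lay between the WT values (log2 change 0.23, SE 0.12, and 0.037 without KO replicate 2).

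Genes of proteins that mTORC1 or mTORC2 phosphorylate or control had 9 of 13 tested members higher in KO, a median log2 change of 0.033 and 0 calls. Sgk1, a kinase downstream of mTORC2, stood at 20.9 and 23.4 CPM in KO, against 19.6 and 20.0 CPM in WT (log2 change 0.16, SE 0.09, adjusted p = 0.656 in edgeR's test). Pdcd4, an inhibitor of translation that S6 kinase marks for degradation, had a log2 change of -0.076 (SE 0.05). Rps6kb1, the S6 kinase gene itself, had one of 0.077 (SE 0.05).
Of the MiT/TFE factors and their lysosomal targets, 11 of 14 tested genes were lower in KO, with a median log2 change of -0.069, and 0 of 14 were called. In 7 of 14 both KO libraries were below both WT libraries and in 0 of 14 above, beside 20.1% and 20.4% of all genes. Of the 14, 9 lie in transcript length deciles 2 to 4, in which 29.6% to 43.1% of all genes were higher in KO. Neu1, a lysosomal sialidase, stood at 70.7 and 69.5 CPM in KO, against 76.2 and 79.2 CPM in WT (log2 change -0.15, SE 0.05, adjusted p = 0.547). Hexa, a subunit of lysosomal hexosaminidase, had a log2 change of -0.17 (SE 0.09) and the transcription factor gene Tfe3 one of -0.16 (SE 0.09). Tfeb was at 5.08 and 5.80 CPM in KO, against 5.39 and 5.07 CPM in WT, and its groups overlapped.
Of 8 amino acid transporter genes 6 were lower in KO, within -0.046 to 0.034, and 0 of 8 were called. Slc1a5, which carries glutamine, had a log2 change of -0.046 (SE 0.05), Slc3a2, the shared heavy chain of several amino acid exchangers, one of -0.040 (SE 0.05), and Slc7a6 one of -0.045 (SE 0.06).
Over all 9 lists, 7 of 79 tested genes (8.86%) had an unadjusted p under 0.05, beside 8.40% of all genes. Of these 7, 6 were lower and 1 higher in KO, beside 4.01% lower and 4.40% higher of all genes. Both KO libraries were below both WT libraries for 24 of the 79 (30.4%) and above for 10 of 79 (12.7%), beside the shares of all genes given above. No set test was run on these lists.

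**Figure D4:**
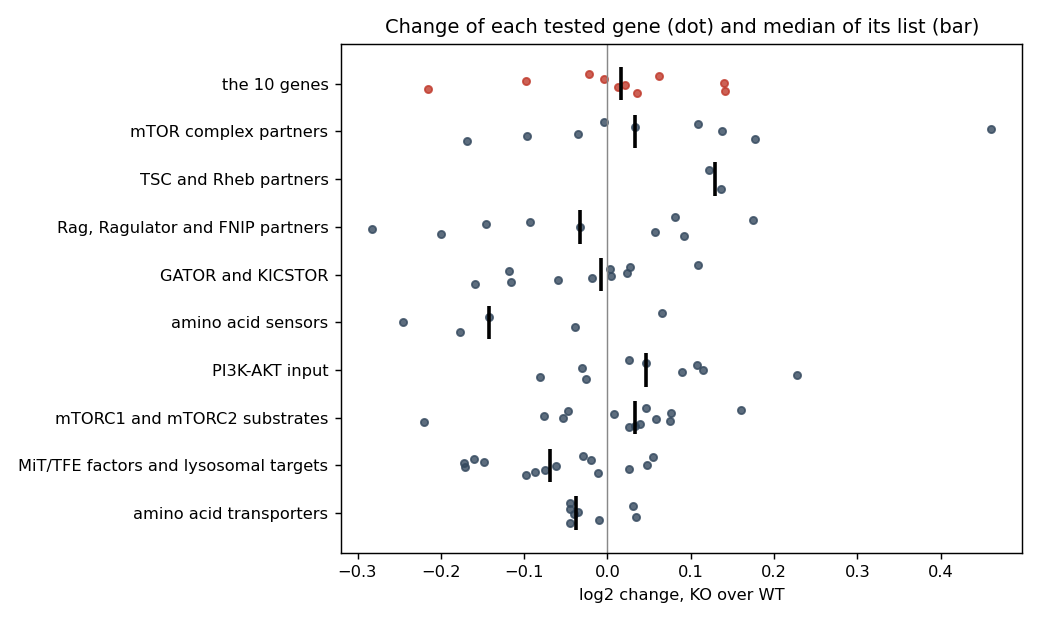
Log2 change (horizontal axis, KO over WT) of each tested gene of the 10 members (red dots) and of the 9 pathway lists (dark dots), with each list's median as a black bar. Medians lie between -0.14 (amino acid sensors) and 0.13 (TSC and Rheb partners); the dot furthest right is Prr5l, which is under 1 CPM in every library.

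Log2 changes in these libraries moved with transcript length. In the shortest decile of coding transcripts (225 to 1231 bases) the median log2 change was -0.084 and 24.5% of 1136 genes were higher in KO. In the longest decile (6412 bases and more) the median was 0.066 and 76.2% of 1134 genes were higher. The decile medians were higher at each step of length. WT replicate 1 stood furthest from the other libraries, at 0.082 above the mean of the 4 libraries for the shortest decile and at 0.077 below it for the longest, on the log2 scale, while WT replicate 2 lay at 0.0022 and 0.0095 above it.
Lamtor1, with a principal transcript of 1119 bases, is in the shortest decile, and Rictor, at 9312 bases, in the longest. With the median of its decile subtracted, Lamtor1 stood at -0.13 and Rictor at 0.074. Fnip1, in length decile 9, stood at 0.100 after subtraction. Rptor, at 6594 bases in the longest decile, lay opposite to the trend and stood at -0.16. Its difference from Rictor is therefore one between transcripts of the same length decile, but not of the same base composition: 56.5% GC in Rptor and 42.5% in Rictor. Log2 changes moved with GC content too. In the decile of lowest GC the median was 0.057 and 71.5% of genes were higher in KO. In the decile of highest GC the median was -0.047 and 33.4% were higher. With the median of its GC decile subtracted instead, Rptor stood at -0.060 and Rictor at 0.11. For Fnip1 and Flcn this subtraction gave 0.084 and 0.069, against 0.14 and 0.035 before it. Lamtor4, with 877 bases, stood at -0.20 after subtraction of its length decile, against -0.28 before it, and Lamtor2, with 668 bases, at -0.12, against -0.20 before it.
The same subtraction changed the sign of the median for 2 of the 9 pathway lists. For the PI3K-AKT input the median came to -0.010, with 4 of 9 genes higher, and for the Rag, Ragulator and FNIP partners to 0.015, with 5 of 9 higher. For the MiT/TFE factors and lysosomal targets the median came to -0.050, with 9 of 14 genes lower, and for the amino acid sensors to -0.12, with 5 of 5 lower. The sensor median is the value of Castor1, which had 5 to 16 counts and an SE of 0.63. Sesn3 counted as lower at -0.00087, against 0.065 before subtraction. Of the 79 pathway genes, 35 were higher and 44 lower in KO after subtraction.

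**Figure D5:**
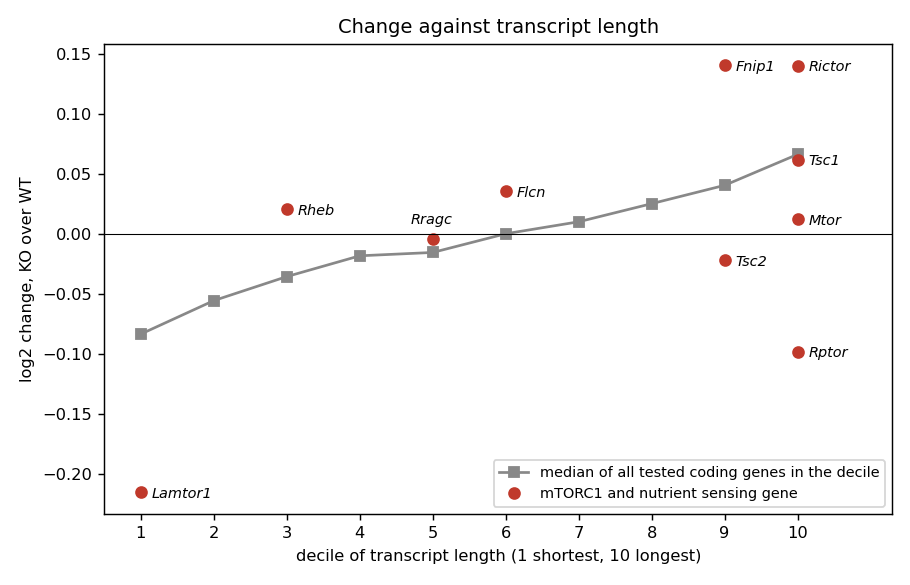
Log2 change (vertical axis, KO over WT) against the decile of principal transcript length (horizontal axis, 1 shortest to 10 longest), as the median of all tested coding genes (grey squares and line) and for each of the 10 genes (red dots). The grey line runs upward with length, between -0.084 and 0.066; Lamtor1 lies below it at the short end, and at the long end Rictor lies above and Rptor below it.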

How the data were processed

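Gene-level RNA-seq of 2 KO and 2 WT libraries was used, grouped by sample title. The submitters' processing notes name Trimmomatic 0.33, STAR 2.5.2, HTSeq, edgeR and the build mm10. The sources used here do not state HTSeq's strand setting and mode, or the annotation release. The authors deposited raw counts per gene and an exon length per gene. Their deposited comparison gives CPM, log2 fold changes and mean log2 CPM, p-values and adjusted p-values, and a likelihood ratio score, per the file headers. HTSeq's summary lines entered neither library totals nor tests: reads in no feature came to 17.2% to 20.6% and ambiguous reads to 0.865% to 0.891% of uniquely aligned reads, and reads with several alignments to 23.2% to 24.7% of aligned reads.

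Counts were tested over the whole table with edgeR 4.0.16 in R 4.3.3: filterByExpr (minimum count 10, minimum total 15), TMM factors, a robust quasi-likelihood F test on group alone, and Benjamini-Hochberg adjustment. Log2 changes are KO over WT; SE is the absolute change divided by the square root of F, intervals use the fit's degrees of freedom, and CPM are counts per 1000000 of the TMM-scaled total. Replicates differed beyond sampling noise (chi-square per degree of freedom 4.82 between KO and 9.00 between WT libraries). Across groups it was 5.46 and 7.74 for WT replicate 2 against KO replicates 1 and 2. For WT replicate 1 it was 10.1 and 12.1. By this measure WT replicate 2 was nearer to each KO library than to WT replicate 1. The series' design text names 2 mice a group. The p-values set the group difference against a spread between these libraries that is estimated for the most part from the other genes. Principal transcripts (best APPRIS rank, then longest) came from GENCODE M21 on the same build, and promoters from RefSeq. The members and lists were chosen with earlier results of these data known. Named genes are Uqcrfs1, all members and, per pathway list, the 3 tested genes with the smallest p. Other genes named (the remaining Ragulator subunits, Deptor, Prr5, Prr5l, Fnip2, Castor1, Tfeb) were chosen after their values were seen. The DP markers Rag1, Cd8a and Cd8b1 were also named after their values were seen. Alternatives were other scalings and filters, DESeq2 1.42.0, the likelihood ratio test, leaving out each library and a replicate block; the decile subtractions and the list medians without single libraries were chosen after seeing the data.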

Additional observations from a re-analysis of the deposited data

How the results depend on the processing

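The number of genes called over the whole table was 3, and stayed at 3 with RLE size factors, with library totals only and with the filter of 1 CPM in 2 libraries. It was 191 without the low count filter, 22 with DESeq2 (its own filter, 20196 genes with an adjusted p), 101 with the likelihood ratio test, 27 with the replicate block, and 41 to 365 without single libraries. The cause was not tested. Of the members 0 were called under every alternative, except 1 (Rictor) without WT replicate 2. Without single libraries their median log2 change ran from -0.022 to 0.014, and the log2 change had both signs for Rragc (-0.026 to 0.014), Mtor (-0.026 to 0.042), Flcn (-0.026 to 0.090), Tsc1 (-0.018 to 0.14) and Rheb (-0.061 to 0.099). After subtraction of the length decile it changed sign for Mtor (-0.054), Tsc1 (-0.0046) and Rragc (0.011), and after subtraction of the GC decile for Tsc2 (0.012). Medians of 4 pathway lists had another sign in at least 1 setting: PI3K-AKT input after subtraction of the length decile (-0.010), Rag, Ragulator and FNIP partners after that subtraction (0.015) and over single libraries left out (-0.15 to 0.030), mTOR complex partners (-0.0054 to 0.029) and mTORC1 and mTORC2 substrates (-0.013 to 0.044) over single libraries left out. Lamtor1, Rptor, Rictor and Fnip1 kept their direction under all 13 alternatives compared here. A block with the replicate numbers crossed between the groups was also fitted, and its values are not given. Same-numbered libraries of the 2 groups did not deviate together across genes (correlation 0.073 over 11465 genes). With 2 libraries a group this sets 1 difference in KO against 1 in WT, so it cannot exclude pairing. The replicate numbers come only from the sample titles and are not taken as pairs. The replicate block called 0 members and 27 genes. Uqcrfs1 kept its call in every fit compared here. For genes under 1 CPM, such as Prr5l, depth limits what could be seen.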
